A study of Mus musculus with 4 samples.

Results

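The comparison set the spleen RNA pool of male offspring of dams given carbon black nanoparticles (CB-NP) against the pool of male offspring of control dams. Its members are 2 of the 4 samples measured, 1 array a side, taken by the sex and treatment in the sample labels. The offspring were 5-day-old mice of ICR, an outbred stock in which animals are not genetically identical. The particles were instilled into the nose of the CB-NP dams at gestational day 5 and again at day 9, with 95 microg/kg a dose. The control dams were given 1 mL/kg of distilled water on the same schedule. Total RNA of the spleens was pooled for each group, so neither pool shows how single animals or litters varied. A pair of female pools was made in the same way, and its values are given beside the male values where they help to read them. The 4 arrays shared 1 slide, with 1 array a pool, so a difference between the male pools cannot be told apart from one between positions on the slide.

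The spleen of a newborn mouse is a blood-forming organ. Red cell precursors, granulocytes and megakaryocytes mature in its red pulp, and macrophages there take up old red cells. The white pulp is still being laid down: B and T cells arrive in the days after birth and are held in separate zones by chemokines that stromal cells make. The tail of the pancreas lies against the spleen, and both organs develop in the same fold of tissue. CB-NP are particles of nearly pure carbon used to study inhaled ultrafine dust.

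Signals are processed signals of the scanning software, a linear intensity, as they were before scaling. The 75th percentile of the array, to which each array was scaled, was 335 for the control pool and 340 for the CB-NP pool. It was 392 for the female control pool and 317 for the female CB-NP pool. Female signals and sums before scaling therefore place the CB-NP pool lower than the scaled differences do. A gene was compared where its brightest probe was well above background on both male arrays, which held for 14179 of the 20284 genes that were matched. A difference is the log2 level of the CB-NP pool minus that of the control pool, and the genes had a median difference of -0.02 and an SD of 0.30. The scanner error of a difference, propagated from the error that the scanning software gives each spot, had a median of 0.20, and 8.06% of genes lay beyond 2 such errors. With 1 array a side there is no replicate, no test was run, and the scanner error covers neither animals nor pooling. Pairs of signals beside a gene are those of the control array and then the CB-NP array, and a number in brackets after them is the log2 difference. Of the genes compared, 122 (0.86%) were at least 2-fold apart, 50 (0.353%) higher and 72 (0.508%) lower in the CB-NP pool. At 1.5-fold, 364 genes (2.57%) were higher and 284 (2.0%) lower, and 45.2% of all genes lay above 0. Among the genes with signals between 9.44 and 77.2, the dimmest 2836, 2.64% were at least 2-fold apart, and among the brightest 2836, with signals from 3058 up, 0.141%. Another scaling between arrays moved single genes by -0.02 to 0.15 on the log2 scale, so smaller differences have no settled direction.

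The labels were checked first. Ddx3y, a helicase gene of the Y chromosome, had a signal of 931 on the control array and 936 on the CB-NP array. Eif2s3y, another Y gene, had 1010 and 887, and Uty had 61.1 and 62.3. Xist, the RNA of the inactive X chromosome, was not well above background on either array. Spleen markers were present on both: Tlx1, a homeobox gene needed to form the spleen, had 1350 and 1300, Spic of red pulp macrophages had 4430 and 5040, and Klf1 of red cell precursors had 17600 and 17100. Of the markers of neighbouring organs, Alb, Apoa1 and Ttr of liver, Gkn1 and Tff1 of stomach and Adipoq of fat were not well above background on either array. Others were: Atp4a of stomach was on both, and Plin1 of fat on the control array only, with 10.3. Well above background on both arrays were 7 of 15 liver genes, 4 of 14 of stomach and gut and 6 of 13 of fat. The summed signals of these lists were 10214 and 11080, 691 and 779, and 2678 and 2810, with no gene at least 2-fold lower. The markers of pancreas were not the same on the arrays, as follows.

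**Figure D1:**
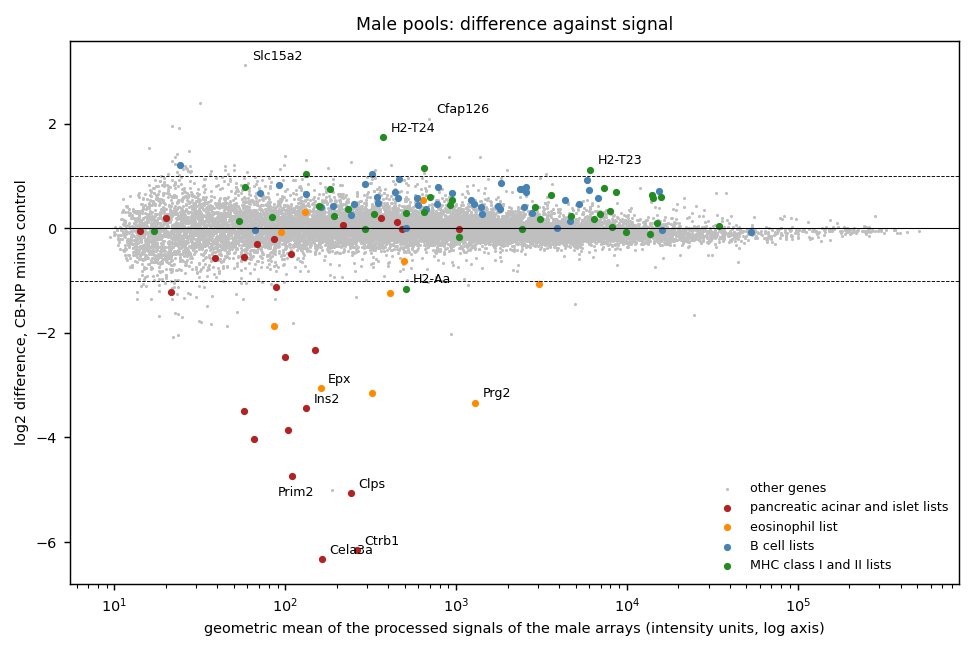
Difference between the male pools (log2, CB-NP minus control, vertical axis) against the geometric mean of both processed signals (intensity units, log axis), 1 point for each of 14179 genes. Dashed lines mark 2-fold. Cela3a at -6.32 and Ctrb1 at -6.15 lie lowest, with other pancreatic and eosinophil genes below the cloud, and the B cell and MHC genes lie mostly just above 0.

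The widest differences were in genes of the exocrine pancreas, all lower in the CB-NP pool. The acinar cells of the pancreas make digestive proteases, lipases and amylase and store them in granules. Of 36 acinar genes with a probe, 29 were well above background on the control array and 14 on the CB-NP array. Their summed signal was 12053 in the control pool and 1415 in the CB-NP pool. Its female counterparts, also before scaling, were 11190 and 1304. A total of 24 of the 36 were at least 2-fold lower, by the difference or by its bound, and none was higher by that much. In whole tissue, fewer cells of a type, of the spleen or of a neighbouring organ taken with it, and less RNA per cell cannot be told apart.

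Among the proteases, Cela3a, an elastase, had a signal of 1460 on the control array and 18.5 on the CB-NP array, a difference of -6.32 with a scanner error of 0.26, or 80.1-fold. Ctrb1, the chymotrypsinogen B gene, had 2210 and 31.5 (-6.15, scanner error 0.22). The carboxypeptidase gene Cpa1 had 563 and 21.5 (-4.73). A further elastase, Cela3b, had 192 and 17.3 (-3.49), and the trypsinogen-like Gm10334 had 265 and 16.4 (-4.04). Every one of these genes was near the dim end of the range on the CB-NP array while several were far above the 75th percentile on the control array. A different probe of Cela3a gave 96.6 and 15.1 (-2.70), so the size depended on the probe while both were more than 2-fold lower. Ctrl, a chymotrypsin-like protease, was close to even at 75.1 and 62.3, and Cela1 was slightly higher at 335 and 392. Other trypsinogens were well above background on the control array only, so their difference has a bound. Try5 had a signal of 620 and was at least 73.4-fold lower, Gm5771 with 506 at least 59.9-fold lower, and the bound of Try4, with 316, was 37.4-fold. The trypsinogen genes are near-identical copies, and a probe may read more than 1 of them.

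The list of pancreatic proteases and inhibitors had 9 genes compared, 8 of them lower and 7 at least 2-fold lower, with a median of -3.49. Over all genes the median was -0.02. With the 7 bounded genes included the median was -3.76. With the normexp background correction, which holds dim signals up, it was -1.66. Spink1, the trypsin inhibitor of the acinar cell, was at least 16.5-fold lower. The female pools also differed this way: 0 of 9 genes of the list were higher there, with a median of -2.79, and Cela3a had a signal of 899 in the control pool and 14.0 in the CB-NP pool.

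Lipases, amylases and granule proteins had the same direction. Clps, the colipase that anchors pancreatic lipase to fat droplets, had 1390 and 42.1 (-5.07, scanner error 0.21). Sycn, a protein of the zymogen granule membrane, had 392 and 27.3 (-3.87), and Cel, the bile salt activated lipase, had 234 and 42.9 (-2.47). Amy2a5, a pancreatic amylase, had 1050 on the control array and was not well above background on the other, at least 124-fold lower. By the same bound the lipase-related Pnliprp1 was at least 57.0-fold lower, the regenerating protein Reg1 at least 32.6-fold and the amylase Amy1 at least 24.9-fold. Erp27, a protein of the endoplasmic reticulum, was even at 482 and 483, and Zg16 had 126 and 91.4 (-0.48). The 5 genes compared had a median of -2.47, or -1.58 with normexp. Pnlip, the main pancreatic lipase, Pla2g1b and Reg3b were not well above background on either array.

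The acinar transcription factors were mostly dim. Rbpjl, a subunit of the acinar factor PTF1, had a signal of 164 on the control array and was at least 18.2-fold lower on the CB-NP array. Of the female pools only the control was well above background, with 22.6. Ptf1a, its partner, was not well above background on either male array. Bhlha15, a factor of secretory cells, had 46.9 and 32.2 (-0.56), while Gata6 had 211 and 223 and Nr5a2 had 18.6 and 21.8, all at signals where the scanner error is wide or the difference small.

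Acinar promoters are shown because these genes were low together, and PTF1 is known to read an E-box with the letters CACCTG together with a box of the letters TTTCCC. Each line runs from 250 bases before the start of the gene to 50 after it, from RefSeq (GRCm38.p6), with matches to either box on either strand in capitals. They lie at chr8:111690961-111691260 on the minus strand, chr4:137409742-137410041 on the minus strand and chr6:30638968-30639267 on the plus strand.
Ctrb1: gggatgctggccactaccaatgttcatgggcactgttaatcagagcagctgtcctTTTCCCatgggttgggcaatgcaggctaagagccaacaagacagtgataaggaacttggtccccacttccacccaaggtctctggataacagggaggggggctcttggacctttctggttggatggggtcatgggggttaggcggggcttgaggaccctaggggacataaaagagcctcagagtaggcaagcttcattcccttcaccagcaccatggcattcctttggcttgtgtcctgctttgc
Cela3a: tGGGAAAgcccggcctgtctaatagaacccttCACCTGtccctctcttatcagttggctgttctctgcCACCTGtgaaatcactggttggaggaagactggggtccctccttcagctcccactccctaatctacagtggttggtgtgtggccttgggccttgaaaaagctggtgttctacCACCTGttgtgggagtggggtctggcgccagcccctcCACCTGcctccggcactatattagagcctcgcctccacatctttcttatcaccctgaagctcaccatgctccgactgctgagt
Cpa1: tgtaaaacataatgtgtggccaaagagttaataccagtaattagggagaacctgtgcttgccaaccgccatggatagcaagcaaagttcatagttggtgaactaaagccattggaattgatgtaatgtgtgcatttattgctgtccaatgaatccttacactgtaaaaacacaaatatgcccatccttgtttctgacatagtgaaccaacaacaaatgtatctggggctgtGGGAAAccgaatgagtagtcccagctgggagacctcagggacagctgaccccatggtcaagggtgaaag
Cela3a holds CACCTG at 4 places and TTTCCC, read as GGGAAA, once. The promoters of Ctrb1 and Cpa1 hold TTTCCC once and no CACCTG in this window. Of the 15 genes of the protease list with a promoter in the table, 13 hold CACCTG, 8 hold TTTCCC and 6 hold both. Of all 32851 mouse promoters of this length, 20.2% hold CACCTG, 25.2% TTTCCC and 4.86% both. Among 16 genes of the lipase and amylase list 7, 5 and 3 hold them. Cela1, which was slightly higher in the CB-NP pool, holds both boxes, and Ctrl, which was close to even, holds CACCTG. Promoters with these boxes thus did not all belong to genes that were lower. A match is a description of the letters and not a measured binding site.

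Islet hormone genes were lower in CB-NP than in control among the male pools, and not among the female pools. Ins2, an insulin gene, had a signal of 434 on the control array and 40.5 on the CB-NP array (-3.44, scanner error 0.22), against 98.4 and 108 in the female pools (0.44). Ins1, the other insulin gene, had 468 on the control array and was at least 50.4-fold lower. Its signals in the female pools were 53 and 72.2. Gcg, the glucagon gene, was at least 5.18-fold lower and Chga, of hormone granules, had 129 and 60.2 (-1.12). Of the 21 islet genes with a probe, 11 were well above background on the control array and 7 on the CB-NP array. The 7 compared had a median of -0.21, or -1.12 with the 4 bounded genes included, and a female median of 0.28. Mafa had 1030 and 1040. Pdx1 and Neurod1 were not well above background on either array.

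**Figure D2:**
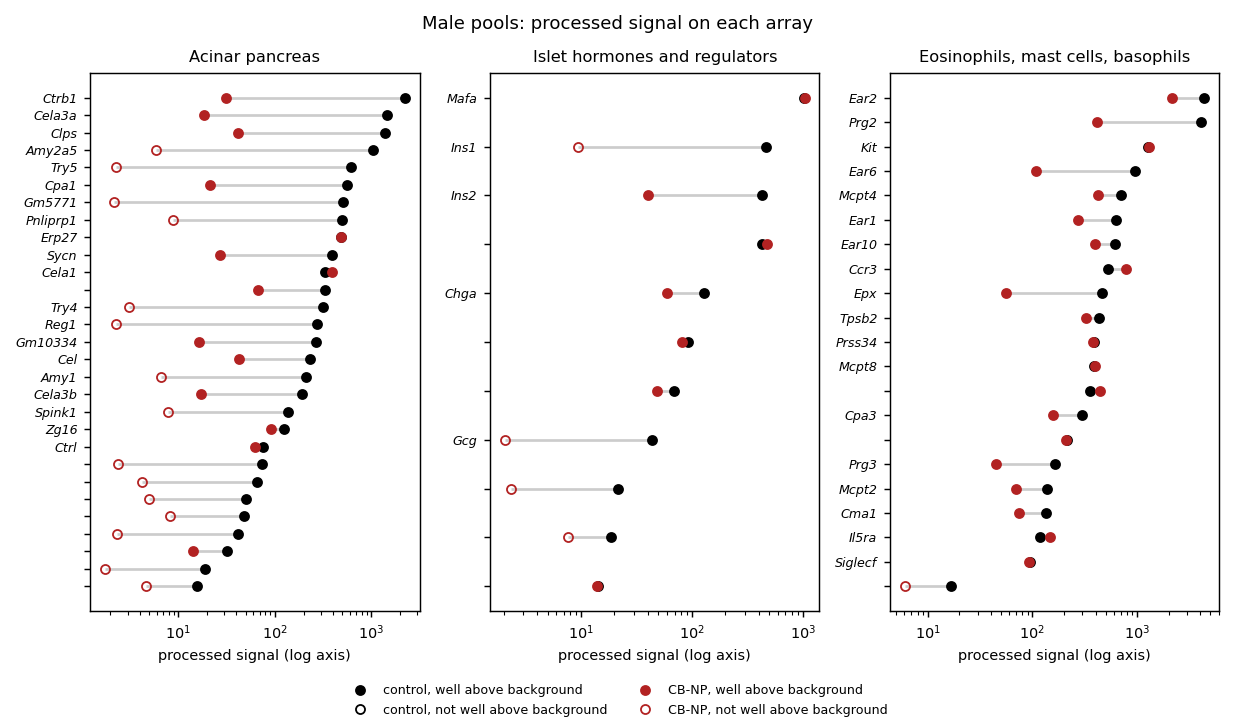
Processed signal (log axis) of each gene on the male control array (dark) and the male CB-NP array (red), for acinar, islet, and eosinophil, mast cell and basophil genes well above background on at least 1 of the arrays. Open circles are signals not well above background, and genes that the text does not name are drawn without a label. Cela3a, with 1460 and 18.5, and Ctrb1, with 2210 and 31.5, are among the acinar genes farthest apart, and Prg2, with 4080 and 411, among the eosinophil genes.

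Eosinophil granule genes were the other group of wide differences. Eosinophils are granulocytes whose granules hold a few very abundant basic proteins. Prg2, the major basic protein, had a signal of 4080 on the control array and 411 on the CB-NP array (-3.33, scanner error 0.20). Epx, eosinophil peroxidase, had 463 and 56.4 (-3.06), and Prg3, a relative of Prg2, had 163 and 45.2 (-1.87). All 7 granule genes measured were lower, 6 of them by at least 2-fold; this subset was set apart with its values known. The eosinophil ribonuclease Ear6 had 949 and 108 (-3.16), Ear1 had 626 and 271 (-1.23), Ear2 had 4380 and 2130 (-1.06) and Ear10 had 608 and 399 (-0.63). These ribonucleases are close copies, and their probes may share transcripts. The receptors on the list did not go with them: Ccr3, the eotaxin receptor, had 527 and 778 (0.54), Il5ra, the interleukin 5 receptor, had 117 and 147 (0.31), and Siglecf had 95.3 and 92.8 (-0.06).

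For the whole eosinophil list, 8 of 10 genes were lower and the median was -1.15, between -1.15 and -1.06 under the other background correction, scalings and probe rule. The summed signal of the list was 12010 in the control pool and 4441 in the CB-NP pool. In the female pools it was 26751 and 6651 before scaling, and all 7 granule genes were lower there too, with a median of -2.09. Mast cell proteases were lower by less. Mcpt2 had 138 and 69.2 (-1.02), the carboxypeptidase Cpa3 had 296 and 157 (-0.94), the chymase Cma1 had 135 and 74.9 (-0.87) and Mcpt4 had 703 and 424 (-0.75). Tpsb2, a tryptase, had 434 and 325 (-0.44). The basophil proteases Mcpt8 (384 and 396) and Prss34 (390 and 379) were close to even, as was Kit, the stem cell factor receptor, at 1275 and 1290. Fcer1a, Ms4a2 and Cd200r3, which define mast cells and basophils, were not well above background on either array.

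Outside these groups, few bright genes were lower by 2-fold. Prim2, a subunit of DNA primase, had 1060 and 33.3 (-5.01), while Prim1, its partner, had 11300 and 9990 (-0.20). Its female pools had 1390 and 315 (-1.84). Of the other 40 genes compared on the cell cycle and replication list, the lowest was at -0.45. Cbr2, a carbonyl reductase, had 1870 and 467 (-2.02), and a different probe gave 197 and 54.0 (-1.89). Unc93a2 had 8060 and 3020 (-1.44), Slc51a, a bile acid transporter subunit, had 403 and 165 (-1.31), Fam83d, a spindle protein, had 205 and 59.5 (-1.81) and Itgb3bp, a centromere protein, had 1170 and 588 (-1.01). Among the female pools Unc93a2 was also lower (-1.85), as were Slc51a (-1.03), Cbr2 (-1.24) and Itgb3bp (-1.08), while Fam83d differed by -0.36. Each of these genes other than Cbr2 rests on the probe used alone or had no other detected probe.

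Of the 72 genes at least 2-fold lower, 12 were on the pancreatic lists and 6 on the eosinophil list, and 60 had a CB-NP signal under 100. Of all 14179 genes compared, these lists held 14 acinar genes, 3 acinar transcription factors, 7 islet genes and 10 eosinophil genes. The dimmest 2836 of all genes, with mean signals up to 77.2, held 44 of the 72. In the female pools 64 of the 72 were measured: 43 were lower there, and 24 were at least 2-fold lower. At least 2-fold apart in the female pools, in either direction, were 1.09% of all genes. Among all genes measured on the 4 arrays 57.0% were lower in the female CB-NP pool. Of the 50 genes at least 2-fold higher, 36 had a control signal under 100, 49 were measured in the female pools, 34 were higher there and 4 were at least 2-fold higher. For all genes that share was 43.0%. Only 14 of the higher and 12 of the lower genes had signals of at least 100 on both male arrays. Of 17 genes past 2-fold that had another detected probe, 12 had the same direction on it and 5 were again past 2-fold.

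Of the genes that were higher, the widest difference among those measured on both arrays was in Slc15a2, a transporter of small peptides, with a signal of 19.6 on the control array and 173 on the CB-NP array (3.12, scanner error 0.27). Slc15a2 in the female pools had 168 and 105 (-0.37), so the male control pool was the low one of the 4. Cfap126, a protein of the base of motile cilia, had 330 and 1440 (2.10), and 118 and 405 with a different probe (1.76). The female pools also differed in Cfap126, with 391 and 1570 (2.31). It did not stand for cilia as a whole: of 20 genes of motile cilia compared, 9 were higher and 11 lower, and the median of -0.04 changed sign with the scaling. Efcab9, another gene of that list, had 12.1 and 46.8 (1.93), near background. Fads3, a member of the fatty acid desaturase family, had 1340 and 2970 (1.13), against 1540 and 2630 in the female pools (1.08), while Fads1 (0.05), Fads2 (-0.14) and Scd2 (0.00) were close to even.

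Chac1, a glutathione-degrading enzyme induced through Atf4, had 155 and 379 (1.27), and Galk2, a kinase of N-acetylgalactosamine, had 272 and 642 (1.22). The other probe of Galk2 gave 178 and 250 (0.47). Trib3, a further target of Atf4, had 504 and 718 (0.49). The rest of the integrated stress response list stayed close to 0, with Atf4 at 44100 and 44900, Asns at 34100 and 32100 and Ddit3 at 690 and 716. Its median of 0.0046 over 19 genes changed sign with the scaling. Well above background on the CB-NP array only were 347 genes, and 53 of them were at least 2-fold higher by their bound; on the control array only there were 283, with 108 at least 2-fold lower. Nr1h5, a nuclear receptor gene, was at least 33.2-fold higher with a signal of 309, and it was measured in both female pools at 135 and 292. Prss22, a serine protease, was at least 23.0-fold higher with 214, and Fggy, a carbohydrate kinase, was higher by at least 4.46 on the log2 scale with 205. Prss22 was not well above background in either female pool, and Fggy differed there by -2.35, with 80.7 and 12.8.

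B cell genes were higher together. B cells recognise antigen with the surface immunoglobulin, to which Cd79a and Cd79b couple the signal. Of 29 genes of B cell surface receptors and signal proteins, 27 (93.1%) were higher and 16 were higher by at least 1.5-fold. The median was 0.61, a 1.53-fold difference, and lay between 0.50 and 0.67 under the other settings. Ms4a1, which encodes CD20, had a signal of 4230 on the control array and 8140 on the CB-NP array (0.92), Cd79b had 12000 and 19900 (0.71) and Cd79a had 275 and 426 (0.61). Fcer2a, the low-affinity IgE receptor of mature B cells, had 329 and 646 (0.95), Tnfrsf13c, the BAFF receptor, had 1350 and 2500 (0.87), Cd40 had 215 and 395 (0.86) and Cr2, of mature follicular and marginal zone cells, had 478 and 728 (0.59). Cd180, a Toll-like receptor relative, passed 2-fold at signals of 15.8 and 37.2 (1.21). Cd22 (0.02), Cd81 (-0.02) and Cd24a (-0.06), the last 2 also expressed by many other blood cells, were even within the scanner error. The female pools had a median of 0.60 for the same list, with 25 of 29 genes higher.

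Transcription factors of the lineage went the same way. Of 17 genes, 16 were higher, with a median of 0.42. Ebf1, an early B lineage factor, had 224 and 466 (1.04), Spib had 1930 and 3410 (0.80), Pax5, which holds B cell identity, had 55.8 and 90.9 (0.68) and Pou2f2 had 341 and 563 (0.70). Precursor genes were mixed, with 10 of 16 higher and a median of 0.17, between 0.10 and 0.22 under the other settings. The surrogate light chain genes Vpreb1 (598 and 564, -0.11), Vpreb2 (67.1 and 59.4, -0.20) and Igll1 (86.6 and 63.0, -0.48) were lower, and Rag2, of the recombinase, had 14.4 and 9.66 (-0.60) near background. Dntt had 114 and 133 (0.20), and Vpreb3, which persists into later stages, had 2710 and 4930 (0.84). Of 9 plasma cell genes 5 were higher, with a median of 0.09 and values from -0.60 to 0.59. At the ends of that range, Mzb1 had 1916 and 2937 (0.59), while Jchain, the joining chain of secreted immunoglobulin, had 607 and 406 (-0.60). The difference between the mature and precursor lists was not tested.

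Genes that place lymphocytes in the white pulp were higher as well. Of 17 genes of lymphoid chemokines and homing receptors, 14 were higher, with a median of 0.47. Cxcr5, the receptor that takes B cells into follicles, had 448 and 883 (0.96), and Cxcl13, its ligand, had 1980 and 2680 (0.42). Ccr7, the receptor of the T cell zone, had 1190 and 1670 (0.47), and Ccl19, its ligand, had 4590 and 6680 (0.52). Ccr6 had 1120 and 1940 (0.77), Gpr132 had 445 and 946 (1.07) and Madcam1, of the marginal sinus, had 1140 and 1660 (0.52). Cxcl12 (22200 and 20900, -0.11) and Cxcr4 (578 and 583, -0.01) were close to even. In the lymphotoxin, BAFF and RANKL list 15 of 16 genes were higher, with a median of 0.38. Ltb, a lymphotoxin subunit needed for white pulp to form, had 9090 and 15700 (0.77), Lta had 132 and 227 (0.76), Tnfrsf14 had 308 and 587 (0.91) and Tnf had 94.8 and 160 (0.74), while the stromal receptor Ltbr had 895 and 976 (0.10).

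T cell genes were less far from 0 in the male pools. Of 21 genes of the T cell receptor complex and its coreceptors 16 were higher, with a median of 0.13 and none past 1.5-fold. Cd3e, a chain of the receptor complex, had 1150 and 1130 (-0.05), Cd4 had 1070 and 962 (-0.17) and Cd8a had 66.6 and 73.7 (0.13). Cd2 had 1430 and 1860 (0.36), Cd3g had 309 and 385 (0.30), and Cd8b1 had 185 and 135 (-0.48). Cd3e differed by 0.59 in the female pools, Cd4 by 0.33 and Cd8a by 0.72, and 21 of 22 genes were higher with a median of 0.58. The difference between the sexes was not tested. Of 19 genes of T cell lineage regulators 14 were higher, with a median of 0.18 and values from -0.33 to 1.15. In the female pools 19 of 19 were higher, with a median of 0.53. The 2 ends of the male range were both at low signals. Foxp3, the regulatory T cell factor, had 30.5 and 24.6 (-0.33), against 0.77 in the female pools, while Pdcd1 had 17.4 and 39.3 (1.15), near background. The 8 GIMAP genes, GTPases of lymphocyte survival, were all higher, with a median of 0.49: Gimap6 had 2460 and 3300 (0.40), Gimap8 had 512 and 855 (0.72) and Gimap7 had 13.2 and 26.8 (1.00). The natural killer list had 7 genes higher and 8 lower and its median of -0.02 changed sign with the scaling.

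Genes of MHC class II, which present peptides on B cells, dendritic cells and macrophages, were mostly higher, and H2-Aa was the widest exception. Of 15 genes, 12 were higher and the median was 0.46. H2-Ab1 had 11200 and 17700 (0.64), H2-Eb1 had 12700 and 19600 (0.60), and Cd74, the invariant chain, had 11500 and 17500 (0.58). H2-Ob, a subunit of the inhibitor H2-O found in B cells, had 429 and 972 (1.16), and 76.5 and 180 with its other probe (1.21). H2-Oa, its partner, had 562 and 870 (0.61), and H2-DMb2 had 91.5 and 191 (1.04). H2-Aa, which encodes the alpha chain that pairs with the product of H2-Ab1, had 751 and 343 (-1.15, scanner error 0.20). H2-Aa in the female pools had 780 and 605 (-0.06) and H2-Ab1 differed by 0.71, so the H2-Aa probe went apart from that of its partner in both pairs of pools. H2-Aa had no other detected probe, and its control signal of 751 was far below the 11200 of H2-Ab1. Whether its probe reads every allele of an outbred stock equally was not tested. Without H2-Aa the list had a median of 0.52. Ciita, the class II transactivator, was near background at 17.1 and 16.8.

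Class II promoters are shown for 2 genes that were higher and for H2-Aa. They carry an X-box, read by the RFX complex, and a Y-box, read by NF-Y and searched as TGATTGG. The window, source and build are those of the acinar promoters, with matches on either strand in capitals. They lie at chr17:34238655-34238954 on the plus strand, chr17:34305617-34305916 on the plus strand and chr17:34287774-34288073 on the minus strand.
H2-Ob: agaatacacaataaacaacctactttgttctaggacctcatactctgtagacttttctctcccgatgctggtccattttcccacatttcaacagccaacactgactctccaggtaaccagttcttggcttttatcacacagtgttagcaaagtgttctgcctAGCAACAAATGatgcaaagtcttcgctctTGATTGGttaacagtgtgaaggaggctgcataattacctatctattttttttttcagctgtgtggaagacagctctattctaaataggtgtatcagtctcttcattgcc
H2-Eb1: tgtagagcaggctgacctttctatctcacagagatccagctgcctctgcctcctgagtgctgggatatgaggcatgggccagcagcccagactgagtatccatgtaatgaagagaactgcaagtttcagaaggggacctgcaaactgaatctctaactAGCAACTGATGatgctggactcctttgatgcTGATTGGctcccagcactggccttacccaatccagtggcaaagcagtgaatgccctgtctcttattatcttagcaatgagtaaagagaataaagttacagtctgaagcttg
H2-Aa: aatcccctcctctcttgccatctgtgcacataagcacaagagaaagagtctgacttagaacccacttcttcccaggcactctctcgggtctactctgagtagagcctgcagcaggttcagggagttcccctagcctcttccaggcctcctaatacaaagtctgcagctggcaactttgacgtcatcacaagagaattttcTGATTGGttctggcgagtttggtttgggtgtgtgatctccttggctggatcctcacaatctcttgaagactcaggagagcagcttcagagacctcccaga
H2-Ob and H2-Eb1 each hold both boxes, and H2-Aa holds the Y-box letters without those searched for the X-box. Both boxes were found in 4 of the 12 class II genes with a promoter, H2-DMb1, H2-Eb1, H2-Eb2 and H2-Ob, and in 24 of all 32851 promoters (0.0731%). The X-box letters alone are in 0.895% of promoters and the Y-box letters in 7.82%. H2-DMb1 had signals of 1090 and 988 (-0.16), so promoters with both boxes did not all belong to genes that were higher.

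MHC class I genes were higher in 20 of 24 cases, with a median of 0.29. The nonclassical genes were farthest from 0. H2-T24 had 203 and 691 (1.75), and 173 and 341 with its other probe (0.96), and H2-T23, whose product shows signal peptides to natural killer cells, had 4100 and 9080 (1.13). Gm11127, a class I gene, had 2330 and 4890 (1.05). H2-T24 differed in the female pools by 0.79, H2-T23 by 0.53 and Gm11127 by 0.52. H2-D1 had 6710 and 11100 (0.70), H2-Q6 had 2840 and 4490 (0.64), while H2-K1 (7971 and 8266, 0.03) and B2m, the shared light chain (14350 and 15600, 0.10), were close to even. Nlrc5, the class I transactivator, had 140 and 239 (0.75), and Tapbp, of peptide loading, had 2510 and 3370 (0.40). Class I genes are polymorphic and alike in sequence, so probes may read several of them and may not read every allele of an outbred stock equally, which was not tested.

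Interferon-inducible GTPases, which act against microbes inside cells, were higher in 15 of 17 cases, with a median of 0.46. Tgtp2 had 852 and 2230 (1.37), with 3570 and 3020 in the female pools (0.06), and its near-copy Tgtp1 had 25.1 and 22.2 (-0.20). Gvin1 had 1100 and 2140 (0.94), Gbp9 had 154 and 280 (0.84), Gbp5 had 113 and 192 (0.74), Gbp2 had 589 and 914 (0.61) and Gbp3 had 409 and 616 (0.57), whereas Irgm1 had 1200 and 1460 (0.26) and Igtp 3572 and 3943 (0.12). All 9 genes of the p200 family, DNA sensors, were higher, with Ifi209 at 118 and 218 (0.86) and Ifi214 at 46.9 and 93.8 (0.98). The classical interferon-stimulated genes were split, 17 higher and 14 lower with a median of 0.12. Isg15 had 5270 and 6960 (0.38) and Usp18 had 276 and 405 (0.53), whereas Ifit1 had 55.1 and 47.5 (-0.24), Ifit2 had 206 and 138 (-0.60) and Rsad2 had 10400 on both (-0.02). In the female pools 26 of 32 of them were higher, with a median of 0.38.

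**Figure D3:**
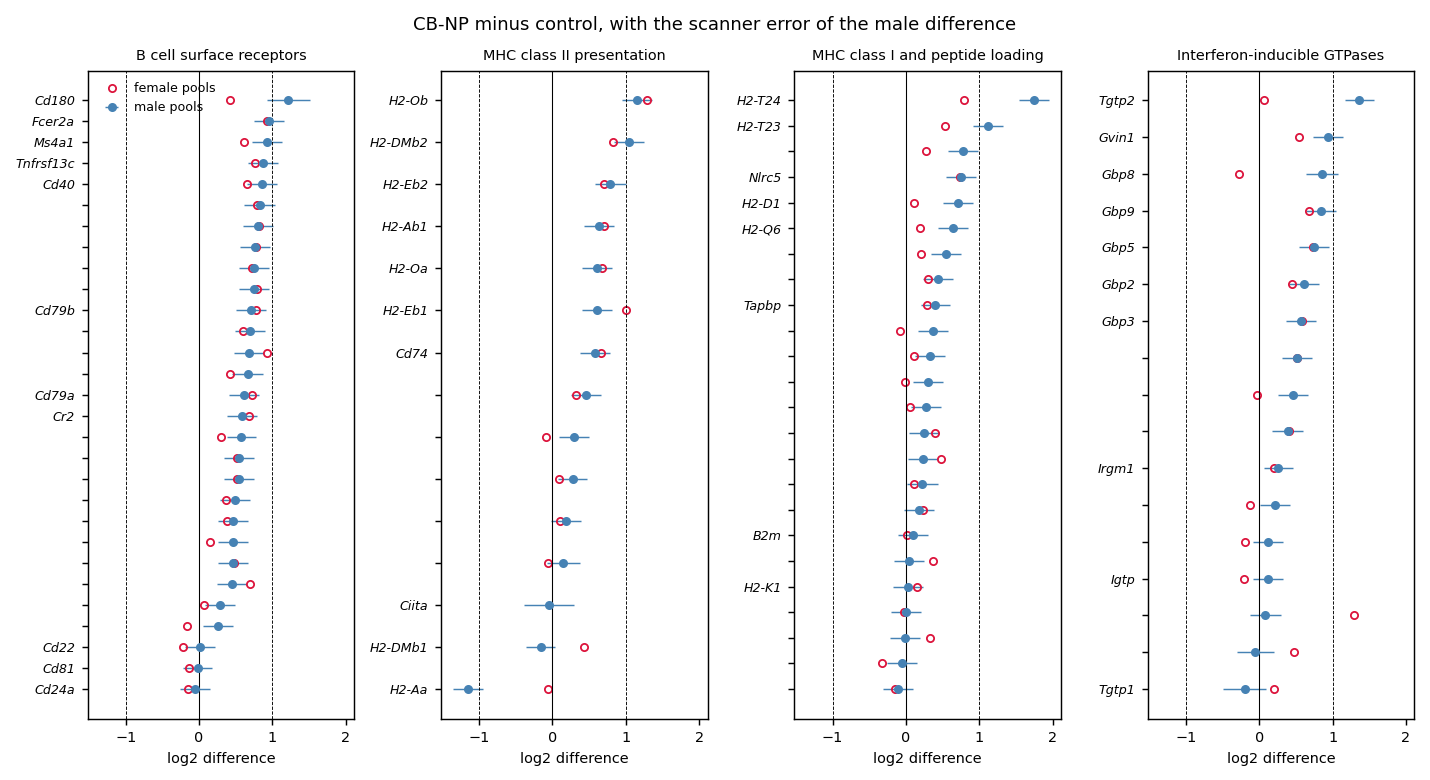
Log2 difference (CB-NP minus control) of each compared gene of 4 lists, with the scanner error of the male difference as a bar and the female difference as an open circle. Dashed lines mark 2-fold, and genes that the text does not name carry no label. In the B cell list 27 of 29 male values are above 0, and H2-Aa at -1.15 is the lowest male value in the panels.

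The immune lists above were higher in the same pool in which the acinar sum was 12053 against 1415 and the eosinophil sum 12010 against 4441. The part of either in these differences was not tested.

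Toll-like receptor and macrophage genes had medians near 0, and the inflammatory chemokines were higher. Traf6, the ubiquitin ligase that carries Toll-like receptor signals, had 162 and 150 (-0.13, scanner error 0.21), and -0.27 in the female pools. Of 30 genes of the Toll-like receptors and the Traf6 chain 23 were higher, with a median of 0.10. Myd88 had 1445 and 1481 (0.01), Irak1 had 1610 and 1740 (0.09), Tlr2 had 373 and 426 (0.17), Tlr4 had 132 and 148 (0.14) and Tlr9 had 1300 and 1170 (-0.17). Tlr1 (0.44), Unc93b1 (0.40) and Traf3 (0.47) were farther from 0. The list ran from -0.50 to 1.21, the value of the dim Cd180 given with the B cell genes. In it 3 genes were higher by at least 1.5-fold, 1 of them by at least 2-fold, and 0 were lower by 1.5-fold. Macrophage genes had a median of 0.10 with 20 of 25 higher: Csf1r had 15400 and 18200 (0.22), Adgre1, the F4/80 antigen, had 1390 and 1830 (0.38), and Vcam1 (10800 and 11100, 0.02) and Marco (13700 and 13600, -0.03) were even. A further 2 genes of the macrophage list were well above background on the control array only and lower by their bound. With these included the median was 0.09. The inflammatory chemokines had a median of 0.43 over 16 genes, most of them dim, with 11 higher and 4 higher by at least 1.5-fold. Ccl24 had 211 and 426 (0.99), Cxcl10 had 475 and 688 (0.51), Ccl4 had 29.3 and 52.1 (0.81) and Ccl12 had 17.9 and 12.0 (-0.60). With every gene admitted whatever its detection the median was 0.20. Ccl24 differed in the female pools by -0.13 and the list by 0.10. Of 29 inflammatory and T helper cytokine genes 16 were dim on both arrays, Il4, Il5, Il6, Il10, Il13 and Il17a among them. Il1b had 62.1 and 67.1 (0.09) and Ifng 29.9 and 40.7 (0.42).

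Neutrophil granule genes lay a little above 0 in the male pools and below 0 in the female pools. Of 15 genes of the primary granule and its precursors 13 were higher, with a median of 0.19, against 1 of 15 and a median of -0.27 in the female pools. Mpo, myeloperoxidase, had 50700 and 59700 (0.21), Elane, neutrophil elastase, had 8980 and 10800 (0.24), Gfi1 had 911 and 1180 (0.35) and Ctsg had 17400 and 18800 (0.09). Fcnb, a ficolin, had 972 and 949 (-0.06) and a female difference of -1.41. The secondary granule list had 13 of 19 genes higher and a median of 0.06, against 2 of 19 and -0.49 in the female pools, with Camp at 72700 and 85100 (0.21), Ltf at 15400 and 15800 (0.02) and S100a8 at 91800 and 91100 (-0.03). The difference between the sexes was not tested.

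Megakaryocyte and platelet genes were higher in 23 of 24 cases, though none reached 1.5-fold. The median was 0.27, between 0.22 and 0.33 under the other settings, and in the female pools 11 of 24 were higher with a median of -0.02. Pf4, platelet factor 4, had 21600 and 26800 (0.29), Ppbp had 7340 and 9170 (0.30), and the integrin genes Itga2b and Itgb3 had 737 and 943 (0.33), and 5510 and 7000 (0.32). Gp6, the collagen receptor of platelets, had 272 and 381 (0.46). P2ry12 (54.0 and 54.9) and F2rl2 (77.1 and 77.3) were even.

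Red cell genes were slightly lower. For all 2836 genes with a mean signal from 3058 up, where most red cell genes lie, the median was -0.08. Of 21 genes of the red cell membrane and its enzymes 20 were lower, with a median of -0.15, between -0.19 and -0.08 under the other settings. Slc4a1, the band 3 anion exchanger, had 146000 and 126000 (-0.23), Icam4 had 8880 and 6830 (-0.40) and Tspo2 had 35200 and 25200 (-0.50), while Car1 had 17000 and 19800 (0.20). Among genes of haem and iron 13 of 18 were lower, with a median of -0.10: Alad had 50900 and 39900 (-0.37) and Urod had 99000 and 86900 (-0.21), whereas Fech had 90500 and 93100 (0.02). The adult globin Hba-a1 had 515000 and 507000 (-0.04) and the embryonic Hbb-bh1 had 155 and 101 (-0.64). Of 7 globin genes 6 were lower, with a median of -0.04, and of 14 erythroid transcription factors, such as Gata1 (26100 and 24500, -0.11), 11 were lower with a median of -0.09. Both medians changed sign with the scaling. The globin genes are near-identical copies and their probes may share transcripts.

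Genes of the cell cycle and DNA replication were lower in 37 of 41 cases, with a median of -0.20, between -0.20 and -0.12 under the other settings. Without Prim2 36 of 40 were lower and the median was -0.20. Mki67 had 66600 and 59800 (-0.18), the helicase subunit Mcm6 had 70800 and 61500 (-0.22) and Mcm5 16900 and 14100 (-0.28), Pcna, the sliding clamp, had 46200 and 39500 (-0.25), Cdc20 had 25600 and 20700 (-0.33) and Cdk2 had 590 and 437 (-0.45). In the female pools 2 of 41 were higher, with a median of -0.26. Most genes of this list and of the mitochondrial, ribosomal protein and proteasome lists that follow are bright too, and are to be read against the same median of -0.08.

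Mitochondrial and proteasome genes were also lower by small amounts. Of 37 genes of respiratory complex I, 35 were lower with a median of -0.14, led by Ndufv3 (19500 and 13400, -0.56) and Ndufa11 (4470 and 3500, -0.37). Of 42 genes of complexes II to V, 38 were lower with a median of -0.15, as were 70 of 77 mitochondrial ribosomal protein genes with a median of -0.13. Over the other settings these medians lay between -0.16 and -0.04. Cytosolic ribosomal protein genes were lower in 75 of 81 cases by a median of -0.06, which changed sign with the scaling.

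The proteasome showed a split by subunit. Of 43 genes 37 were lower, with a median of -0.16. Psmd14 had 1850 and 1520 (-0.30), Psmb7 had 5420 and 4580 (-0.26) and Psma1 had 12400 and 11100 (-0.18). The subunits that interferon induces for peptide presentation were on the other side: Psmb8 had 2840 and 3710 (0.36), Psmb9 had 2640 and 3190 (0.25), Psmb10 had 11000 and 12500 (0.16) and Psme2 had 18100 and 20700 (0.17), with Psme1 at 8641 and 8851 (0.01). This subset of 5 was set apart after its values were seen. It was above 0 in 5 of 5 cases in the female pools too, with a median of 0.15, while of the other 38 subunits 37 were lower in the male pools and 37 in the female pools, with medians of -0.17 and -0.30.

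**Figure D4:**
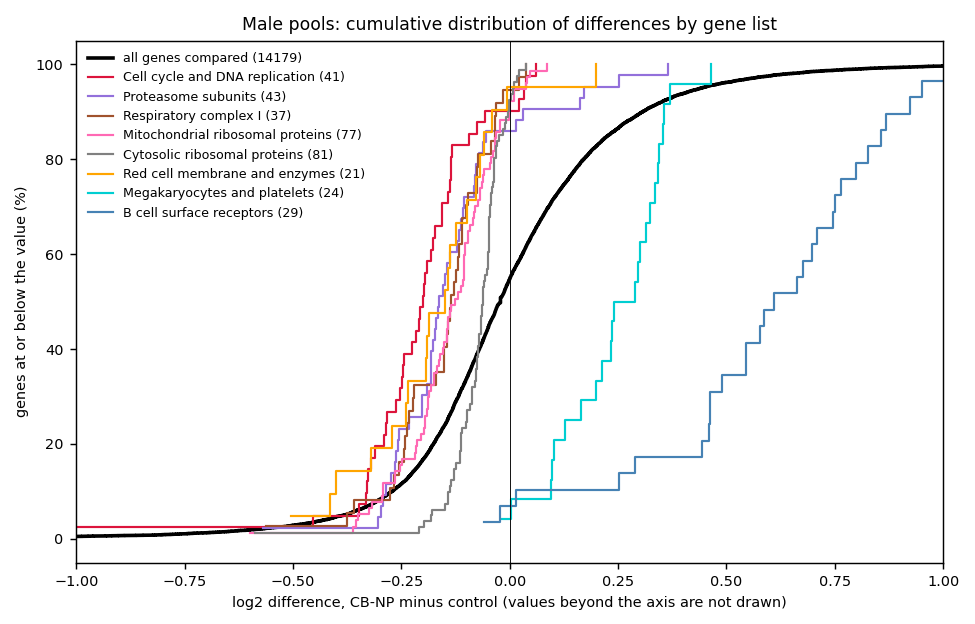
Cumulative share of genes (%) at or below each log2 difference (CB-NP minus control), for all 14179 genes (black) and for 8 lists, with the number of genes in brackets. The curves of the cell cycle, proteasome, complex I and mitochondrial ribosome lie left of 0 and steeper than that of all genes, those of the megakaryocyte and B cell lists to the right.

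Lists of genes that respond to particles, soot chemicals or oxidants had medians from -0.10 to 0.10, while single members were farther from 0. Of 21 targets of Nrf2, the oxidant-sensing factor, and metallothioneins 15 were lower with a median of -0.10. Nqo1 had 406 and 333 (-0.31), Mt1 had 50100 and 42900 (-0.25), Gclm had 1290 and 1120 (-0.23) and Hmox1, haem oxygenase, had 7230 and 7340 (0.00). In the aryl hydrocarbon receptor list Cyp1b1 had 230 and 429 (0.88) and Ahrr had 20.4 and 30.4 (0.55), with female differences of 0.59 and 0.51. Tiparp (405 and 414), Ahr (972 and 1050, 0.09) and Aldh3a1 (425 and 353, -0.29) did not follow, and Cyp1a1 was not well above background on either array. Of 8 genes of that list 5 were higher, and the median of 0.02 changed sign with the scaling. Immediate early genes were higher in 19 of 23 cases with a median of 0.10, such as Egr1 (231 and 336, 0.52), Fosb (34.5 and 65.6, 0.91) and Klf2 (2280 and 3340, 0.53), whereas Ier3 had 577 and 429 (-0.45). The female median for these was -0.06.

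The stroma, endothelium and regulators of DNA methylation showed small differences. The stromal median of -0.05 over 26 genes changed sign with the scaling, with Sparc at 157000 and 163000 (0.03), Tcf21 at 517 and 574 (0.13) and Lum at 116 and 66.8 (-0.82). Endothelial genes had a median of 0.12 with 16 of 21 higher, such as Robo4 (1200 and 1570, 0.37) and Cldn5 (4000 and 4610, 0.18). Dnmt1, the maintenance methyltransferase, had 2740 and 2430 (-0.19), Dnmt3a had 1360 and 1650 (0.26) and Uhrf1 had 24800 and 22800 (-0.14), and 10 of 15 genes of that list were lower.

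**Figure D5:**
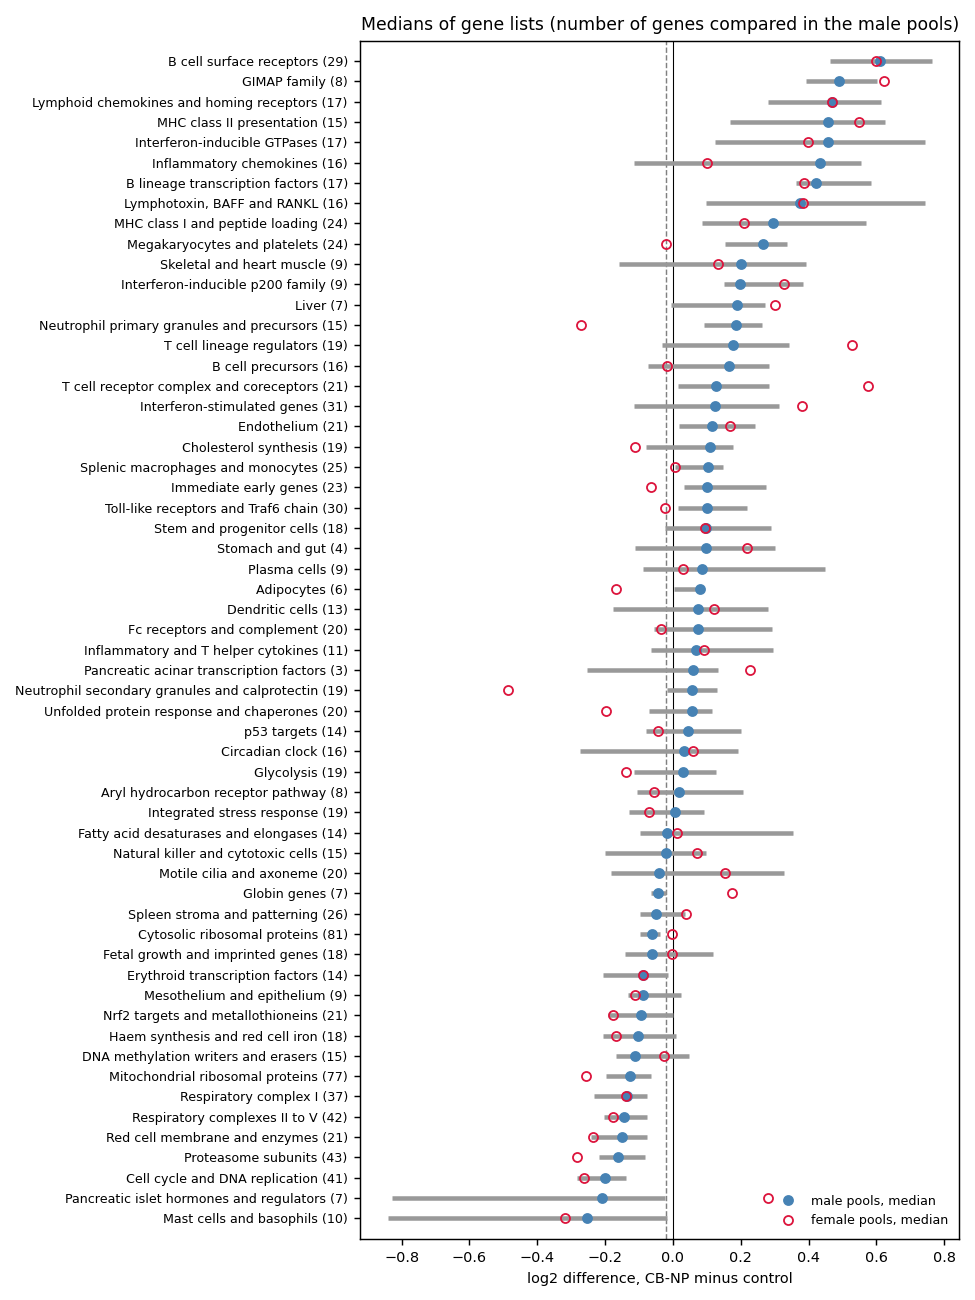
Median log2 difference (CB-NP minus control) of 58 gene lists in the male pools (filled) and female pools (open), with bars from the lower to the upper quartile of the male values and the number of genes in brackets. The dashed line is the male median of all genes, -0.02. The B cell list is highest at 0.61, and the pancreatic protease, lipase and eosinophil lists, at -3.49, -2.47 and -1.15, lie beyond the axis and are not drawn.

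In all, 38 of the 61 gene lists had a median above 0 and 23 below, and 50 of them kept that sign under every other background correction, scaling and probe rule tried. Families formed by the letters of the gene symbol, which needed 10 genes compared, divided the other way. Of 172 such families 67 had a median above 0 and 105 below, and 109 kept that sign under the same alternatives. The highest were the guanylate binding proteins (Gbp, 0.59 over 10 genes, with Gbp8 at 0.85), the MHC (H2, 0.45 over 24 genes), the Traf proteins (0.43 over 10 genes, with Traf1 at 360 and 589), the chemokines named Ccl (0.35 over 13 genes) and the sulphotransferases named Chst (0.31 over 11 genes, with Chst3 at 1290 and 2560). The lowest were vomeronasal receptors (Vmn, -0.31 over 17 genes, among them Vmn1r65 at 117 and 70.8) and olfactory receptors (Olfr, -0.21 over 74 genes, with Olfr1349 at 34.5 and 13.8), both dim in spleen, followed by the proteasome regulatory subunits (Psmd, -0.19 over 14 genes), the Mcm family (-0.17 over 10 genes) and the family under H, mostly histones (-0.16 over 69 genes, with H2bu2 at 2990 and 1720). These 10 families kept their sign under the other settings. In the female pools the medians of Vmn (0.06), Olfr (0.19) and Ccl (-0.05) had the opposite sign, and the rest of the 10 had the same sign as in the male pools.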

How the data were processed

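Total RNA of pooled spleens was measured on 4 arrays, 1 a pool, of which the 2 male arrays make the comparison. Per the file headers, 1-colour (Cy3) Agilent arrays of design 028005, laid out on mouse build mm9, were read with Agilent Feature Extraction 10.10.1.1. The deposited processed signal is an intensity on a linear scale that the authors' software background-subtracted and detrended within each array, per the file headers, with no scaling between arrays. The raw median intensity of a spot and of its background was also deposited, and other values deposited are flags of 0 or 1. The authors' value table holds an intensity that is the processed signal times a constant per array. A Bioanalyzer was used to check the RNA, per the labels.

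Here the log2 processed signal was centred, array by array, on its 75th percentile over spots that are not controls. Repeated spots were averaged, leaving out those marked as outliers. Of 55681 probes 26762 matched 20284 genes by RefSeq accession (names from GRCm38.p6), and 5405 genes had several probes, of which the one of highest mean signal was used. A gene was compared when well above background on both male arrays. On the control array 58.5% of spots were so and on the CB-NP array 59.0%, no spot was saturated, and spots printed 10 times varied by 4.52% and 4.51% (coefficient of variation). The 1 array a group limits the precision. Genes well above background on 1 array only were given a bound against the higher of the lowest such signal of the other array and their own. The count of differing genes took a log2 difference of 1 (2-fold) with no test, since each group has 1 array.

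The members and the 61 gene lists were chosen with earlier results of these data known. Of 1386 listed genes, 1345 had a probe and 1150 were compared. Genes named are, by rule, the 20 highest and 20 lowest also past 2-fold with normexp (10 and 20 qualified), the 10 largest bounds each way, and in each list up to 8 genes past 1.5-fold and the 3 brightest. Not all of these are printed, and other genes were chosen after their values were seen. Medians needed 3 genes. Alternatives were normexp (offset 50, on the median signal, which the files give), centring on the median, quantile normalization, cyclic loess, the percentile of detected probes, the authors' value table, no detection filter, a signal of at least 100 on 1 array, and the mean of probes. The calculations were tested on simulated data. Promoters were RefSeq sequences of 300 bases. Python 3.11.15, pandas 2.3.3, numpy 2.4.6, matplotlib 3.10.9, R 4.3.3 and limma 3.58.1 were used.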

Additional observations from a re-analysis of the deposited data

Results flagged for a closer look

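The sexes went opposite ways, each past 2-fold, in 3 of the genes with a measured difference in both. D7Ertd143e differed by -1.35 in the male pools and 1.73 in the female pools on the log2 scale, Nkpd1 by -1.12 and 1.63, and Znf41-ps by -1.30 and 1.35. Fggy, well above background on 1 male array only, was also opposite, at least 4.46 higher by its bound in the male pools and -2.35 in the female pools. So was Crygc, by its bounds of -1.06 in the male pools and 1.03 in the female pools. With normexp the male differences of the first 3 were -0.78, -0.33 and -0.61. The list of neutrophil primary granules and precursors had a median of 0.19 in the male pools and -0.27 in the female pools. With 1 pool of each kind, these differences between the sexes were not tested.

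Probes with no matched gene are used in no comparison above. Of 12288 such probes measured on both male arrays, 90 were at least 2-fold higher and 101 lower (1.55%), and of these 6 higher and 6 lower were also past 2-fold with normexp. Their genes are not named here.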

How the results depend on the processing

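At least 2-fold higher and lower were 50 and 72 genes. With normexp these counts were 11 and 24, with no detection filter 430 and 669, and with a signal of at least 100 on 1 array 20 and 31. The authors' value table gave 69 and 61, so the split between higher and lower turned with its scaling, median centring 58 and 66, quantile normalization 54 and 68, cyclic loess 56 and 66, the percentile of detected probes 54 and 67, and the mean of probes 43 and 70. Also past 2-fold with normexp were 10 of the 50 genes and 24 of the 72. Past 2-fold lower under every alternative for values and scaling were 23 genes. The median of pancreatic proteases was -1.66 with normexp and -4.04 with a signal of at least 100, that of pancreatic lipases -1.58 with normexp, that of islet genes -0.56 with a signal of at least 100, and that of inflammatory chemokines 0.20 with no filter. Zbtb42 (-1.04) was at 0.010 with the mean of its probes, since its other probe was at 1.06. Of the list medians under all alternatives 549 moved by no more than the median scanner error of the list's genes, and 6 moved by more. That error is wider than many of the medians, so a median that changed sign can be among the 549. For the erythroid transcription factors the error was 0.20, and the median went from -0.09 to 0.01 with quantile normalization. The cause of these moves was not tested. Most genes past 2-fold were dim on 1 array, where the size of a difference depends on the background taken off. No paired analysis was possible because the male groups share 1 replicate number only. A fit over both sexes, which would ask about the treatment in both, was not run.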
